A study of Mus musculus with 12 samples.

Results

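Flavin monooxygenases are enzymes of the endoplasmic reticulum that use NADPH and oxygen to oxidise soft nucleophiles, mainly nitrogen and sulphur atoms in drugs, dietary amines and small thiols. NADPH reduces the bound flavin, which then takes up oxygen and waits as a stable hydroperoxyflavin until a substrate arrives, so that many unlike substrates are accepted. Several family members lie side by side on mouse chromosome 1. The 4 genes described here, Fmo1, Fmo2, Fmo4 and Fmo5, were taken by gene symbol from the 22180 genes with a transcript cluster of their own on the array, and each of the 4 had a single cluster. Fmo4, Fmo1 and Fmo2 lie next to each other on chromosome 1 among the measured genes, and Fmo5 lies on chromosome 3.

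Expression was measured on 12 arrays in 4 groups of 3: aortic arch of DBA/2J mice (DBA), aortic arch of C57BL/6 mice (B6), aortic root of 129S6/SvEvTac mice (129) and aortic arch of 129 mice. All mice were wild-type males between 2 and 5 months old on regular chow, although the series text also names apoE strains. Each array held RNA from a pool of mice, with 5 mice in each arch pool except B6 replicate 1 (4 mice) and 6 mice in each root pool. The p-values thus measure the spread between pools of mice. For the root pools 1 label field says arch, while the sample titles and tissue fields say root, which was followed.

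The array medians lay between 4.68 and 4.82 on the log2 scale, and the number of arrays limits the precision. Smooth muscle markers were bright throughout, with a summed signal over 8 genes between 38051 and 43743 on the 12 arrays. In root the summed signal of 8 cardiomyocyte markers was 15917 to 23345, against 1439 to 2501 in 129 arch. One array in each of 2 strains stood apart. B6 arch replicate 1 had a summed signal of 13314 for 8 hepatocyte markers, against 266 and 299 on the other B6 arrays, and it also had the lowest adipocyte sum of any arch array (5406). DBA arch replicate 2 had a summed signal of 6015 for 8 lung epithelium markers, against 178 and 121 on the other DBA arrays, and of 31239 for the cardiomyocyte markers. The arrays are called the B6 array with liver transcripts and the DBA array with lung and heart transcripts below.

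Sequence upstream of the genes is shown for Fmo2 and Fmo4, which lie on either side of Fmo1 on chromosome 1 and were both low in DBA. The table of RefSeq promoters used here (GRCm38.p6) was matched for 3 of the 4 genes, Fmo2, Fmo4 and Fmo5. The 250 bases before the start are printed 5′ to 3′ on the minus strand, with motif matches in capitals, at chr1:162898759-162899008 for Fmo2 and chr1:162812550-162812799 for Fmo4.
Fmo2: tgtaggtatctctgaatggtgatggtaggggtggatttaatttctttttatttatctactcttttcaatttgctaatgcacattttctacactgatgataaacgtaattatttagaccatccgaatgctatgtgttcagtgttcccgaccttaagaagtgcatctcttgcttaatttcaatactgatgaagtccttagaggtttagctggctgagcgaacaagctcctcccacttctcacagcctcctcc
Fmo4: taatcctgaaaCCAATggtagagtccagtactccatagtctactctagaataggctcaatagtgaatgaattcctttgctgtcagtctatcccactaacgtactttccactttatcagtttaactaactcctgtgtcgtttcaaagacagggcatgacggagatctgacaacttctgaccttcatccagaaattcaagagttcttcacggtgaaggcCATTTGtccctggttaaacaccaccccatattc
Both strands were searched for the TATA box, spelled TATAAA, for the CCAAT box by those letters, for the core of the xenobiotic response element, spelled GCGTG, for that of the antioxidant response element, spelled TGACNNNGC, for a half-site of the liver factor HNF1, spelled GTTAAT, and for the E box, spelled CANNTG. No match overlapped another. The Fmo2 window held no match. The Fmo4 window held a CCAAT box from 239 to 235 bases before the start and an E box from 33 to 28 bases before it. The Fmo5 window held a TATA box, a CCAAT box and an E box. Among all 32851 such windows of the RefSeq table, 12.4% held a TATA box, 33.8% a CCAAT box, 28.2% the xenobiotic core, 10.2% the antioxidant core, 6.43% the HNF1 half-site and 66.2% an E box. These windows come from the B6 reference, so they show no difference between strains.

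The first comparison set DBA against 129 arch, the parental strains of the cross in which the study mapped plaque loci. The 3 genes of chromosome 1 were lower in DBA, each by more than 2-fold, and Fmo5 did not pass the test. Thus 3 of the 4 genes were called lower, where 0.582% of all genes were (limma, Benjamini-Hochberg adjusted p below 0.05). For each of the 3 genes all DBA arrays lay below all arrays of 129 arch, where 20.9% of all genes had no overlap in one direction or the other. Because tissue was measured whole, fewer cells of a type and less RNA per cell cannot be told apart here or below. The paper lists DBA sequence at Fmo1 and Fmo2 as unlike that of 129 and B6. Strain variants under the probes were not analysed, so a strain difference in signal need not be one in RNA.

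Fmo1, which in liver and kidney oxidises many drugs and also makes taurine from hypotaurine, had log2 signals of 9.54, 9.53 and 9.62 in DBA arch, against 10.87, 10.93 and 10.76 in 129 arch. The DBA arrays lay close together and well below the lowest array of 129 arch. The log2 difference was -1.29 ± 0.22 (SE), a DBA level of 0.409 times that of 129 (95% interval 0.290 to 0.578, adjusted p = 0.0247). This call was lost when any 1 of the DBA arrays (adjusted p = 0.0826 to 0.0918) or of the 129 arch arrays (0.0869 to 0.102) was left out, while the difference stayed between -1.25 and -1.34. Across its alternatives the adjusted p lay between 0.000926 and 0.251.

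Fmo2, known as the lung form of the family in several mammals, had log2 signals of 10.80, 11.33 and 11.49 in DBA arch, against 12.26, 12.27 and 12.25 in 129 arch. DBA replicate 1 was the lowest array and set most of the spread within DBA. The DBA array with lung transcripts, replicate 2, lay between the other DBA arrays. The log2 difference was -1.05 ± 0.17 (SE), a level of 0.483 times that of 129 (95% interval 0.371 to 0.627, adjusted p = 0.0187). The call was lost without any 1 of the 129 arch arrays (adjusted p = 0.0765 to 0.0822) and was kept without any 1 of the DBA or B6 arrays. The range over all alternatives was 0.00326 to 0.177.

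Fmo4, a family member with few known substrates, was dim, near the array medians. Its log2 signals were 4.83, 4.15 and 4.97 in DBA arch, against 6.06, 6.02 and 5.94 in 129 arch. DBA replicate 2 was the lowest of these, and the 129 arrays lay close together. The log2 difference was -1.36 ± 0.21 (SE), a level of 0.390 times that of 129 (95% interval 0.281 to 0.543, adjusted p = 0.0160). Without DBA replicate 2 the call was kept, and without any 1 of the 129 arch arrays it was lost (adjusted p = 0.0631 to 0.0801, over all alternatives 0.00288 to 0.192). No detection calls were used here, so how far this level lay above background is not known.

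Fmo5, a liver and gut enzyme that oxidises ketones to esters rather than attacking nitrogen or sulphur, had log2 signals of 8.84, 8.70 and 8.96 in DBA arch, against 8.51, 8.91 and 8.78 in 129 arch. The groups overlapped. The log2 difference was 0.10 ± 0.19 (SE), with a 95% interval from -0.33 to 0.53 (adjusted p = 0.908). To set the genes of chromosome 1 against Fmo5 directly, differences between genes were taken within each array. Fmo1 minus Fmo5 was 0.73 ± 0.09 in DBA and 2.12 ± 0.21 in 129 arch (SD, n = 3 each), Fmo2 minus Fmo5 was 2.37 ± 0.36 in DBA and 3.52 ± 0.20 in 129 arch, and Fmo4 minus Fmo5 was -4.18 ± 0.32 in DBA and -2.73 ± 0.24 in 129 arch. The strains did not overlap in any of these, and the two-sided exact permutation test gave p = 0.10 for each, the smallest that 3 against 3 arrays allow (6 such tests in all, adjusted p = 0.10). Fmo1, Fmo2 and Fmo4 had already been called on these arrays and Fmo5 had not, so the lack of overlap is no separate support. With so few arrays the test cannot decide.

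**Figure D1:**
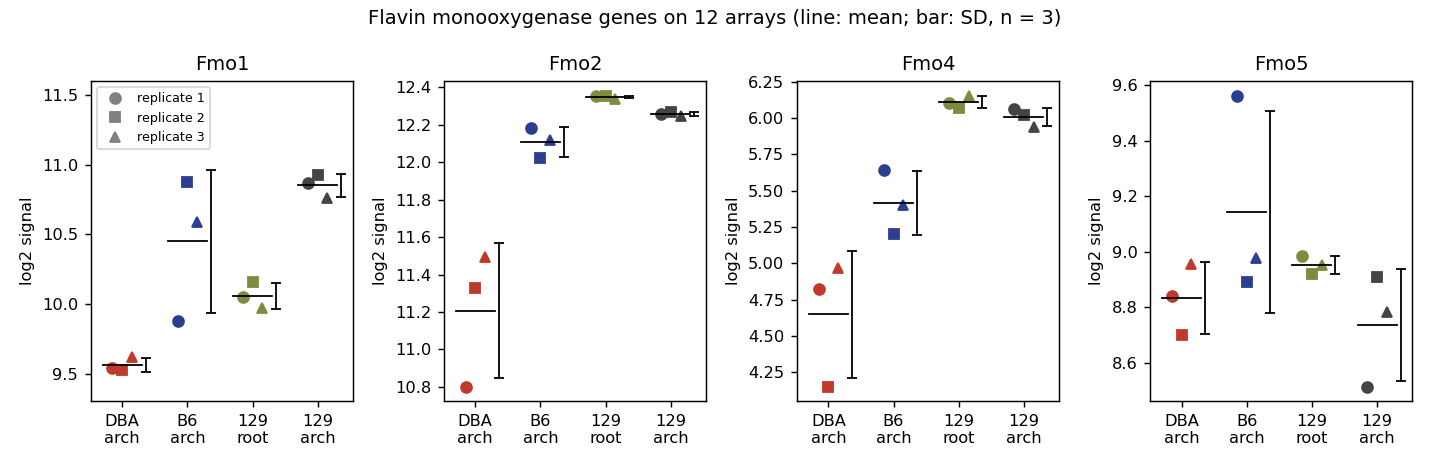
Log2 signal of Fmo1, Fmo2, Fmo4 and Fmo5 on the 12 arrays, with 1 point per array, the mean as a line and the SD as a bar (n = 3), on a separate axis for each gene. The DBA arrays lay lowest for Fmo1 (9.53 to 9.62), Fmo2 (10.80 to 11.49) and Fmo4 (4.15 to 4.97), the root arrays were low for Fmo1 only, and Fmo5 overlapped between DBA and the other strains.

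The second comparison, DBA against B6 arch, asked which of these genes set DBA apart from the other strain as well. Of the 4 genes 1 was called lower, Fmo2, where 0.694% of all genes were. For Fmo1, Fmo2 and Fmo4 all DBA arrays lay below all B6 arrays, as for 7.28% of all genes. Both comparisons use the same DBA arrays, so they are not independent of each other.

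Fmo2 had log2 signals of 12.18, 12.02 and 12.12 in B6 arch, all above the highest DBA array. The log2 difference of DBA from B6 was -0.90 ± 0.17 (SE), a ratio of 0.535 (95% interval 0.412 to 0.696, adjusted p = 0.0376). This call was kept without DBA replicate 1 or 3 only. Omission of DBA replicate 2 (adjusted p = 0.0792), of any 1 of the B6 arrays (0.0688 to 0.125) or of any 1 of the 129 arch arrays (0.0713 to 0.0735) ended it, as did omission of the arrays with liver or with lung and heart transcripts together (0.104). Its alternatives gave adjusted p of 0.00772 to 0.246.

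Fmo1 had log2 signals of 9.88, 10.88 and 10.59 in B6 arch. Replicate 1, the array with liver transcripts, was the lowest of these and the closest to DBA. The log2 difference of DBA from B6 was -0.89 ± 0.22 (SE, adjusted p = 0.10). Without B6 replicate 1 it was -1.17 and passed the test (adjusted p = 0.00362), and without the DBA array with lung and heart transcripts as well it was -1.15 (adjusted p = 0.0127, over all alternatives 0.00362 to 0.517).

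Fmo4 had log2 signals of 5.65, 5.20 and 5.40 in B6 arch, and the difference of DBA from B6 was -0.77 ± 0.21 (SE, 95% interval -1.24 to -0.29, adjusted p = 0.136). It passed only with array weights (adjusted p = 0.0369, over all alternatives up to 0.602). Without the DBA array with lung and heart transcripts the Fmo4 difference shrank to -0.52. Without the B6 array with liver transcripts as well it was -0.40 (adjusted p = 0.227). Fmo5 had log2 signals of 9.56, 8.89 and 8.98 in B6 arch, with replicate 1 highest, and DBA differed from B6 by -0.31 ± 0.19 (SE, 95% interval -0.74 to 0.12, adjusted p = 0.580). Without both of these arrays the Fmo5 difference was -0.035. The B6 array with liver transcripts was thus the lowest B6 array for Fmo1 and the highest for Fmo2, Fmo4 and Fmo5.

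Between B6 and 129 arch none of the 4 genes was called by limma, where 1.45% of all genes were. At an unadjusted p below 0.05 there was 1, Fmo4, where 12.1% of all genes were. By the Tukey-Kramer test of the study's methods, without adjustment over genes, there was none, where 6.83% of all genes were below 0.05. Fmo4 was at -0.59 ± 0.21 (SE) in B6 relative to 129 (95% interval -1.06 to -0.11, adjusted p = 0.291), and its B6 arrays lay below all 129 arch arrays. This difference was -0.70 and passed without the B6 array with liver and the DBA array with lung and heart transcripts (adjusted p = 0.0446, over all alternatives up to 0.913). Fmo2 was also separate between the groups, but by a small log2 difference of -0.15 ± 0.17 (95% interval -0.53 to 0.23, adjusted p = 0.804). For 9.42% of all genes the B6 arrays lay below the 129 arch arrays. Fmo1 was at -0.40 ± 0.22 (95% interval -0.90 to 0.09, adjusted p = 0.543) and overlapped between the strains. Its difference was -0.12 without B6 replicate 1. Fmo5 was at 0.41 ± 0.19 (95% interval -0.02 to 0.84, adjusted p = 0.446).

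In the arch the order of mean levels was thus DBA, B6 and 129, low to high, for Fmo1, Fmo2 and Fmo4, with B6 and 129 not separated by the test at any of them. For Fmo5 the order was 129, DBA and B6, and no neighbours in that order differed beyond their spread.

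The methods of the study used an analysis of variance with the Tukey-Kramer test for each gene. They do not state the scale of the values, so p-values may differ from those of the paper. The test was run here on log2 signals. At its unadjusted level of 0.05, Fmo1, Fmo2 and Fmo4 passed for DBA against 129, as did 6.97% of all genes. The same 3 genes passed for DBA against B6, as did 7.48% of all genes. After Benjamini-Hochberg adjustment over all genes none of the 4 genes passed this test in any pair of strains.

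**Figure D2:**
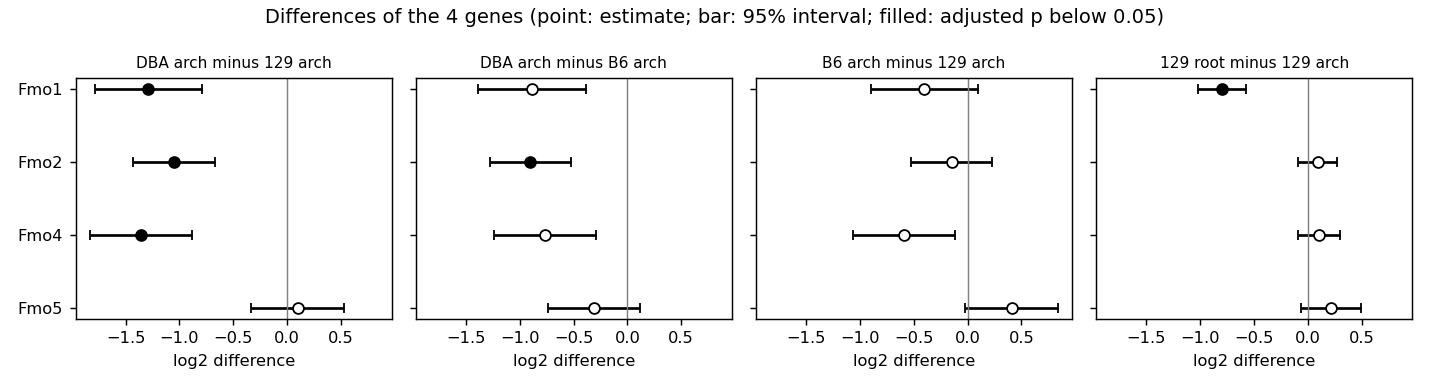
Log2 differences of the 4 genes in the 4 comparisons, as estimates with 95% intervals from limma, with filled points at an adjusted p below 0.05. The filled points are Fmo1, Fmo2 and Fmo4 in DBA relative to 129 arch, Fmo2 in DBA relative to B6 arch, and Fmo1 in 129 root relative to 129 arch.

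The root was compared with the arch in 129 mice. Fmo1 was lower in root and the other genes did not pass the test. Of the 4 genes 1 was called lower, where 7.45% of all genes were, and none was called higher, where 8.36% were. Fmo1 had log2 signals of 10.05, 10.16 and 9.97 in root, against 10.87, 10.93 and 10.76 in arch. All root arrays lay below all arch arrays, as for 16.4% of all genes. The log2 difference was -0.79 ± 0.09 (SE), a root level of 0.577 times that of the arch (95% interval 0.494 to 0.674, adjusted p = 0.00178). The call was kept when any 1 of the 6 arrays was left out (adjusted p = 0.00532 to 0.0113).

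Fmo2 had log2 signals of 12.35, 12.35 and 12.34 in root, against 12.26, 12.27 and 12.25 in 129 arch. Fmo4 had 6.10, 6.07 and 6.15 in root, against 6.06, 6.02 and 5.94 in arch, and Fmo5 had 8.98, 8.92 and 8.95 in root, against 8.51, 8.91 and 8.78 in arch. Each of the 3 genes was separate and higher in root, as were 19.4% of all genes, but by small amounts. The log2 differences were 0.09 ± 0.08 for Fmo2, 0.10 ± 0.08 for Fmo4 and 0.22 ± 0.12 for Fmo5 (SE), with 95% intervals from -0.09 to 0.27, -0.09 to 0.30 and -0.06 to 0.50 (adjusted p = 0.490, 0.470 and 0.282). Median centring of the arrays turned those of Fmo2 and Fmo4 to just below 0. Fmo1 minus Fmo2 within an array was -2.29 ± 0.09 in root and -1.41 ± 0.07 in arch (SD, n = 3 each), without overlap. The same held for Fmo1 minus Fmo4 (3.95 ± 0.14 in root, 4.85 ± 0.06 in arch) and Fmo1 minus Fmo5 (1.11 ± 0.12 in root, 2.12 ± 0.21 in arch). Each of the 3 pairs had p = 0.10 in the two-sided exact permutation test, again the smallest possible. Here too Fmo1 was the gene called on these arrays, and the test cannot decide.

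Adipocyte markers moved with Fmo1 between root and arch. All 8 markers were called lower in root, led by Ucp1, the uncoupling protein of brown fat (log2 difference -8.28 ± 0.25), and Plin1, a coat protein of lipid droplets (-3.53 ± 0.18). The summed adipocyte signal was 2129 to 3347 in root, against 18846 to 22208 in 129 arch. On the B6 array with the lowest Fmo1, replicate 1, the sum was 5406, against 25244 and 20992 on the other B6 arrays. In DBA arch, where Fmo1 was lower than in root on every array, the sum was 15094 to 19788, and 7 of the 8 markers had a negative difference from 129 arch with none called. The DBA and 129 arch ranges of this sum overlapped. No marker of the list was at 0, and the lowest value of any adipocyte marker on an array was 3.63 on the log2 scale, for Ucp1 in root. The part of the adipocyte markers in the level of Fmo1 was not tested.

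Other cell types were compared in the same way. Summed fibroblast and adventitial signals were 19525 to 23291 in DBA, against 21457 to 23609 in 129 arch, and endothelial sums were 6840 to 7358 in DBA, against 7059 to 7636 in 129 arch. Smooth muscle sums were 41532 to 43508 in DBA, against 40038 to 40966 in 129 arch, with 0 of 8 markers called. All 8 macrophage markers were on the higher side in DBA, none called, with sums of 2275 to 2608 in DBA, against 1235 to 2051 in 129 arch. All 6 measured T cell and thymocyte markers were on the lower side in DBA, none called (at most 462 in DBA, at least 731 in 129 arch). Macrophage sums were higher in root than in arch (3685 to 4439, against 1235 to 2051), with 7 of 8 markers called higher, while T cell sums were lower in root (147 to 200, against 731 to 1578). The part of these cells in the levels of the 4 genes was not tested.

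**Figure D3:**
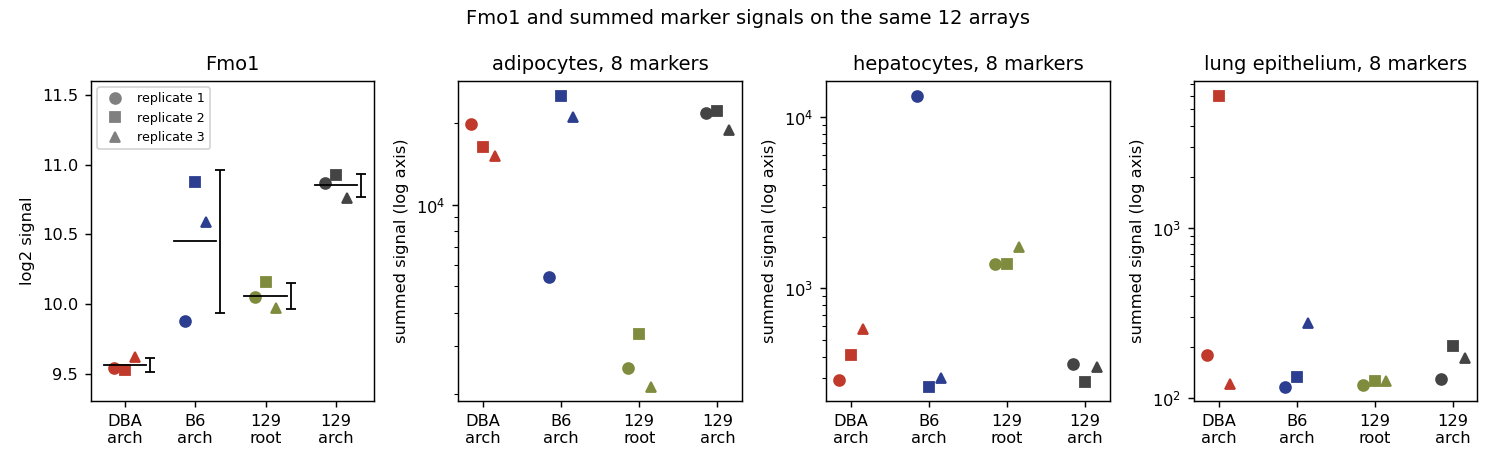
Fmo1 (log2 signal, with mean and SD) beside the summed signals of 8 adipocyte, 8 hepatocyte and 8 lung epithelium markers (log axes), with 1 point per array. The root arrays and B6 replicate 1 were low in adipocyte markers and in Fmo1, whereas the DBA arrays were lowest in Fmo1 with adipocyte sums of 15094 to 19788.

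The genes around them on chromosome 1 had no common direction in DBA. Among the 10 measured genes on each side of them in reference order, 10 of 20 had a negative and 10 a positive difference between DBA and 129 arch, with a median of 0.02. Of these 20 neighbours 1 was called, Selp, the P-selectin of platelets and endothelium (-1.32 ± 0.26, adjusted p = 0.0487), which lay 10 genes away. Over all 22180 genes 320 were called in this comparison. For 9 of the 20 neighbours the DBA and 129 arch arrays did not overlap, in one direction or the other, as for 20.9% of all genes. The nearest neighbours were Prrc2c (-0.02 ± 0.12) on the side of Fmo4 and Fmo6 on the side of Fmo2. Selp was also the neighbour called between DBA and B6 arch (-1.61 ± 0.26, adjusted p = 0.0208), and limma called none between B6 and 129 arch. Around Fmo5 on chromosome 3, 0 of 20 neighbours were called by limma in any pair of strains. In root relative to arch Pde4dip, Notch2 and Zfp697 were higher there and Acp6 was lower. Around the chromosome 1 genes the nearest neighbour called in root relative to arch was Vamp4, a vesicle fusion protein (0.39 ± 0.09, adjusted p = 0.0251), with Suco and Sele also higher, and none of the 20 was lower.

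**Figure D4:**
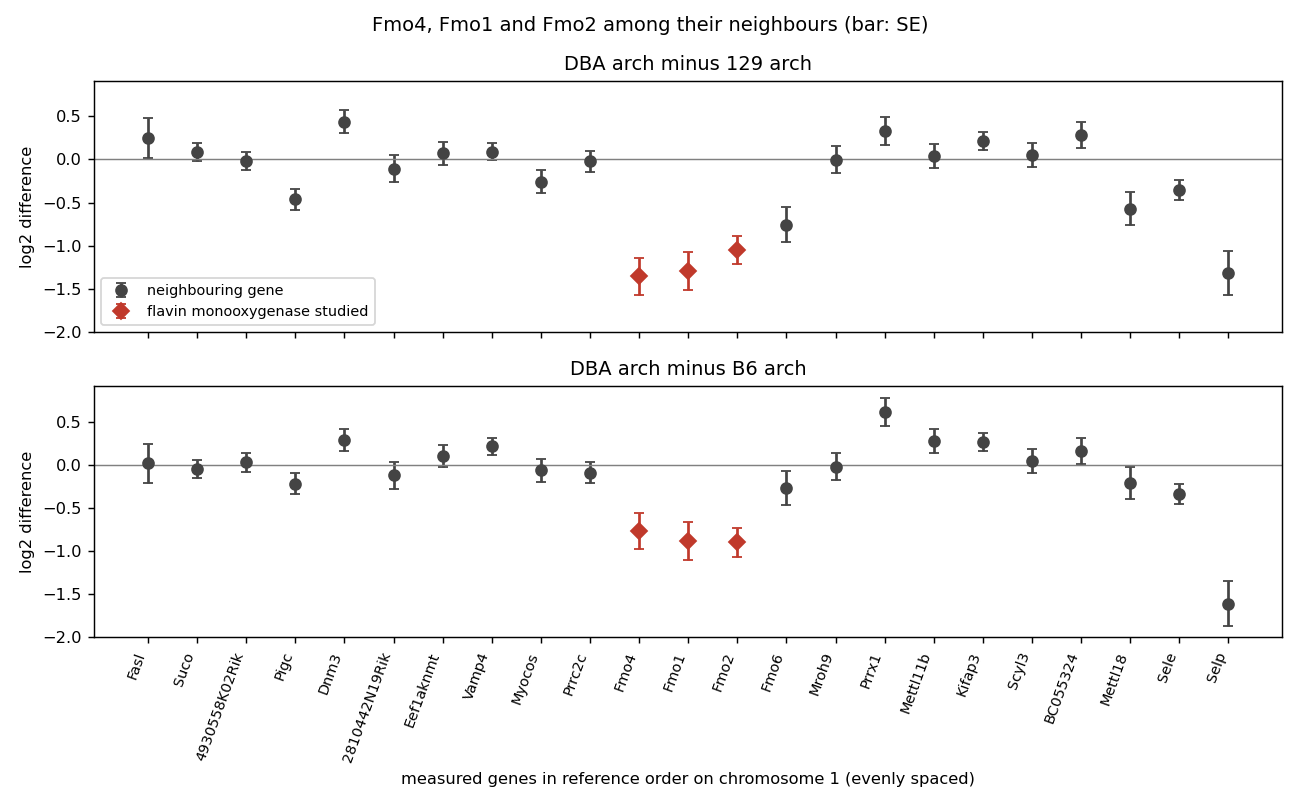
Log2 differences with SE for Fmo4, Fmo1 and Fmo2 (diamonds) and the 10 measured genes on each side in reference order on chromosome 1 (circles, evenly spaced), for DBA minus 129 arch and DBA minus B6 arch. The diamonds lie between -1.36 and -0.77, and among the neighbours Selp lies as low, at -1.32 and -1.61.

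Of 4 further family members that were listed, 2 were measured, Fmo6 and Fmo9, both dim. Fmo6, which adjoins Fmo2, had log2 signals of 4.16, 4.07 and 3.78 in DBA arch, against 4.36, 4.77 and 5.13 in 129 arch. The strains did not overlap, and the difference of -0.75 ± 0.20 (SE, 95% interval -1.20 to -0.30) did not pass the test (adjusted p = 0.133). In B6 relative to 129 it was -0.48 ± 0.20 (adjusted p = 0.371), and in root relative to arch -0.20 ± 0.22 (adjusted p = 0.611). Fmo9, from a second group of such genes on chromosome 1, was at -0.13 ± 0.17 in DBA relative to 129 (adjusted p = 0.843) and overlapped in all 4 comparisons.

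Across the 12 arrays Fmo2 and Fmo4 followed each other (Pearson r = 0.857), Fmo1 less so (0.633 with Fmo2 and 0.540 with Fmo4), and Fmo5 had r of -0.269 to 0.175 with the other genes. These are descriptions over arrays that share their strain and tissue. The deviations from the 4 group means had r of -0.013 between Fmo2 and Fmo4 and of -0.130 between Fmo1 and Fmo2, so the shared course lay between groups and not between pools of a group. Fmo1 and Fmo5 deviated in opposite directions within groups (-0.765), with B6 replicate 1 at -0.57 for Fmo1 and 0.42 for Fmo5.

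The genes most like each member over the 12 arrays were of several kinds. Fmo1 was followed most closely by Glul, the glutamine synthetase (r = 0.967), Mrpl35, a mitochondrial ribosomal protein (0.951), Met, the receptor of hepatocyte growth factor (0.948), Nudt19 (0.929) and Mtmr1 (0.928). For Glul and Met the deviations from group means were as close (0.961 and 0.980). Fmo1 deviated most on the B6 arrays, by -0.57 on the array with liver transcripts and by 0.43 and 0.14 on the others. These correlations within groups thus lean on the B6 arrays. Fmo2 was followed by Srp54c (0.977), Serpinb6b (0.974), Manbal (0.970), P2ry6, a nucleotide receptor (0.960), and Plekhh2 (0.953). Srp54c and Serpinb6b have close copies in the mouse genome, so their signals may be shared with these. The genes closest to Fmo4 were Pamr1 (0.954), Olfr920 (0.951) and the zinc finger genes Zfp277, Zfp14 and Zfp74 (0.952, 0.948 and 0.948). Those closest to Fmo5 were Smoc2, a secreted calcium-binding protein (0.944), Hunk (0.936), Oscp1 (0.930), Trabd2b (0.928) and Ggcx, the vitamin K-dependent carboxylase (0.927). The 5 closest genes differed for each member. Their deviations from group means had r of 0.788 to 0.980 for Fmo1 and of 0.499 to 0.857 for Fmo2. The same r was 0.590 to 0.908 for Fmo4 and 0.896 to 0.917 for Fmo5. All were picked as the highest r among 22180 genes over 12 arrays, so these values are descriptions only.

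The wider pathway was set beside the members between DBA and 129 arch. No gene was called among 7 measured sources of NADPH and electrons (median log2 difference -0.06), 15 cytochromes P450 and epoxide hydrolases (-0.15), 13 glutathione S-transferases (-0.02), 7 genes of cysteine and taurine metabolism (0.04) and 10 transcription regulators (-0.11), where the median of all genes was 0.00. Over all 22180 genes 320 were called there, so lists this short may hold none. All DBA arrays lay below all 129 arch arrays for 3 of the 7 sources of NADPH and electrons, and above for none. Of the 15 P450s and epoxide hydrolases 4 lay below in this way and 1 above. In each remaining list at most 1 lay below and at most 1 above. The same lists had no called gene between DBA and B6 or between B6 and 129 arch. By unadjusted p the lowest in DBA relative to 129 was Cyp2e1, an ethanol-oxidising P450 (-1.13 ± 0.37, adjusted p = 0.230).

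In root relative to arch these lists held called genes in both directions, where 7.45% of all genes were called lower and 8.36% higher. Of the 7 sources of NADPH and electrons 4 were lower and none higher. Pgd, an oxidative enzyme of the pentose phosphate pathway, was at -1.52 ± 0.10, Idh1, the cytosolic isocitrate dehydrogenase, at -0.74 ± 0.10, malic enzyme Me1 at -0.70 ± 0.11 and H6pd at -0.38 ± 0.10 (adjusted p = 0.000144 to 0.0480). Among P450s and epoxide hydrolases 4 of 15 were lower and 1 was higher. Cyp2b10, a xenobiotic-induced P450, was at -3.02 ± 0.48, Ephx2, the soluble epoxide hydrolase, at -1.39 ± 0.16, Cyp2u1 at -0.93 ± 0.10, and Cyp2s1 at 1.08 ± 0.17. Among glutathione S-transferases 4 of 13 were lower, including Mgst1 (-0.68 ± 0.08), and Gsta3 was higher (1.01 ± 0.14).

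For the enzymes around hypotaurine, the substrate that Fmo1 turns into taurine, 2 of 7 genes were lower in root and 2 higher. Cdo1, the cysteine dioxygenase, had a log2 difference of -0.86 ± 0.09 (adjusted p = 0.00105) and Csad, the decarboxylase that forms hypotaurine, of -1.05 ± 0.12 (adjusted p = 0.00152). Slc6a6, the taurine transporter, was at 0.40 ± 0.11 (adjusted p = 0.0477) and Cbs, an enzyme of cysteine synthesis, at 0.42 ± 0.10 (adjusted p = 0.0270). Of the 10 regulators Ahr, the aryl hydrocarbon receptor, was higher (0.64 ± 0.14, adjusted p = 0.0222) and Cebpb lower (-0.64 ± 0.13, adjusted p = 0.0162). The adipocyte markers were lower in root, with a median log2 difference of -2.74, and not all lists went the same way. The list medians were -0.38 for sources of NADPH and electrons, -0.22 for P450s and epoxide hydrolases and -0.01 for glutathione S-transferases. They were 0.05 for cysteine and taurine metabolism and 0.11 for the regulators. The part of the adipocyte markers in these lists was not tested.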

How the data were processed

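Labelled cDNA from 250 ng of total RNA of each pool was measured on Mouse Gene 2.1 ST arrays (Affymetrix) of a single plate. The deposited values are log2 intensities, 1 per transcript cluster and array, normalised by the authors, whose labels name Affymetrix Expression Console. For the method of summarisation, its version and the genome build: not given in the sources used here. Neither detection calls nor the strain variants under probes were analysed here.

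Of 41345 clusters, 23521 had 1 symbol in the platform annotation, 1820 several and 16004 none. The brightest 1-symbol cluster stood for a gene, leaving 22180 genes, of which 21994 were found in the reference table used for gene order (GRCm38.p6). No dim gene was left out. For tests of differences, limma (version 3.58.1, R version 4.3.3) was used (two-sided, Benjamini-Hochberg over all genes, threshold 0.05). The 9 arch arrays entered 1 fit with strain as factor, after the single analysis of variance of the study's methods, and the 6 arrays of 129 mice another. Intervals are at 95%. On simulated data for DBA against 129 arch over 22180 genes, 59 of 100 changes of 1 and 96 of 100 changes of -2 were recovered, with 13 false calls.

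Named genes were the 4 members, other measured family members, called genes of fixed lists (at most 4 a list and comparison), the 5 genes closest in course to each member, and called genes among 10 neighbours on each side. Cyp2e1 and Prrc2c were named after their values were seen. The members, lists and alternatives were chosen with earlier results of these data known. The alternatives were omission of genes below the 25th percentile, quantile normalisation, median centring, array weights, a prior both robust and trended, one fit of all 12 arrays, the 6 arrays of a contrast, averaged clusters, every cluster as a feature, a replicate block, omission of each array, joint omission of the arrays with liver or lung transcripts, the Tukey-Kramer test and a 2-fold minimum.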

Additional observations from a re-analysis of the deposited data

How the results depend on the processing

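Over single genes, 288 of 328 values under the alternatives kept their direction and their side of the threshold, 31 lost a call, 6 gained one and 3 turned direction. The turned values were small: Fmo2 and Fmo4 in root relative to arch with median centring (-0.021 and -0.0089), which moved the median of all genes there from 0.00 to -0.11, and Fmo5 in DBA relative to 129 arch without 129 arch replicate 1 (-0.014, up to 0.18 with another array left out). Of the 3 genes called in DBA relative to 129 arch, 0 to 3 were called when 1 array was left out and 0 with the Tukey-Kramer test. In DBA relative to B6 arch, where 1 of the 4 genes was called, the count was 0 to 1 when 1 array was left out (Fmo1 in place of Fmo2 without B6 replicate 1), 3 with array weights, 2 with all 12 arrays in one fit, and 0 with every cluster as a feature, with the 6 arrays alone, with the Tukey-Kramer test or with a 2-fold minimum. In B6 relative to 129 arch 1 gene was called without the B6 array with liver and the DBA array with lung and heart transcripts, and in root relative to arch 0 with a 2-fold minimum; leaving out 1 array gave 0 and 1 there. The cause was not tested.

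The arrays share replicate numbers in their titles. Same-numbered arrays correlated above 0.1 in their deviations in 2 of 18 pairs (-0.089 to 0.162). The closest of the 3 arrays of another group had the same number in 24 of 36 cases, more often than an even choice among 3 would give. Whether the replicate number stands for a shared step was not tested, and the main fits leave it out. With the replicate number as a block, 1 gene (Fmo4) was called in DBA relative to 129 arch, 0 in DBA relative to B6 arch and 1 in root relative to arch. Fmo1 and Fmo2 were both at an adjusted p of 0.0551 in DBA relative to 129 arch with the block, and Fmo2 at 0.0883 in DBA relative to B6 arch. Over all genes the block gave 217 calls against 320 in DBA relative to 129 arch, 186 against 344 in DBA relative to B6 arch, 186 against 322 in B6 relative to 129 arch and 2812 against 3508 in root relative to arch. No other call of the 4 genes changed with it.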
